A study of Drosophila melanogaster with 4 samples.

Results

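The UDP-glycosyltransferase (UGT) genes of Drosophila melanogaster were taken as all genes whose current symbol is Ugt followed by a digit, which gave 35 of the 13585 genes measured. All 35 had a value in each library, and 28 had a mean of at least 1 normalized count over the libraries, the limit used here for detection. Messenger RNA of the midgut, the digestive and absorptive part of the fly intestine, was sequenced after poly(A) selection in 4 groups of 1 library each. The groups were midguts of untreated control flies at 2 h, untreated control flies at 16 h, uracil-treated flies at 2 h and uracil-treated flies at 16 h. Uracil, a base of RNA, is secreted by certain bacteria and is known in flies as a signal for the Duox response of the gut. The labels used here name no genotype, strain, sex, age, number of pooled guts, or route and dose of uracil.

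UGTs are membrane enzymes of the endoplasmic reticulum that join a sugar from a UDP-sugar donor to small fat-soluble molecules, which makes these more soluble and easier to excrete. Insect UGTs are known to use mainly UDP-glucose, and their substrates include plant toxins, insecticides, pigments and odorants. The reaction is counted as phase II of detoxification, after oxidation by cytochrome P450 enzymes and beside conjugation by glutathione S-transferases. Gut, Malpighian tubule (the insect excretory tubule, which opens into the gut at the end of the midgut) and fat body are the tissues best known for it in flies.

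Reads assigned to genes ranged from 8500378 to 16588143 per library, and 1 read was worth 0.0584 to 0.127 normalized counts. Markers of midgut enterocytes, the absorptive cells, were abundant in every library: all 11 genes of the list were detected, with a summed level of 20436 to 31630 normalized counts. Markers of other tissues were also present and differed between libraries. The 13 Malpighian tubule markers summed to 468 normalized counts in untreated 2 h, 254 in uracil 2 h, 511 in untreated 16 h and 1197 in uracil 16 h. The 8 visceral muscle markers summed to 1125 and 1866 at 2 h and to 1068 and 2326 at 16 h, each time untreated first. Photoreceptor and antennal markers, 5 of 10 detected, summed to 58.6 in untreated 16 h and to 3.80 to 8.76 in the other libraries. Since no group was repeated, differences between single libraries are given without a test. Brackets after a ratio hold its 95% counting interval, which does not include differences between animals or preparations.

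UGT mRNAs together made up between 0.221% and 0.291% of the reads in genes. The share was 0.237% (95% exact interval 0.234 to 0.240) in untreated 2 h, 0.221% (0.218 to 0.224) in uracil 2 h, 0.291% (0.289 to 0.294) in untreated 16 h and 0.270% (0.267 to 0.273) in uracil 16 h. It was therefore lower with uracil at both times, by less than the gap between times in untreated guts. A few members carried most of it, since the 5 most abundant held 54.5% to 61.4% of the UGT signal in a library.

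The most abundant members were Ugt37A2 and Ugt35C1, with mean levels of 285 and 284 normalized counts per kilobase of coding sequence. Ugt35C1, formerly Ugt86Dd, is known for its part in nicotine resistance of larvae. Ugt37A2 stood at 511 normalized counts in untreated 2 h, 510 in uracil 2 h, 434 in untreated 16 h and 354 in uracil 16 h. Ugt35C1 stood at 389, 358, 577 and 438 in the same order of libraries, which is kept below. The ranges of the pair overlapped, with Ugt37A2 the higher at 2 h and Ugt35C1 the higher at 16 h. Next per kilobase came Ugt302C1 (142), Ugt37D1 (125), Ugt35A1 (116), Ugt303A1 (97.7), Ugt302E1 (93.8), Ugt303B3 (85.9), Ugt303B1 (59.6) and Ugt37A3 (59.5). The other 18 detected members lay between 0.635 and 46.4 per kilobase. Coding lengths of detected members ran from 1506 to 1908 bases, so the order by normalized counts was nearly the same.

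**Figure D1:**
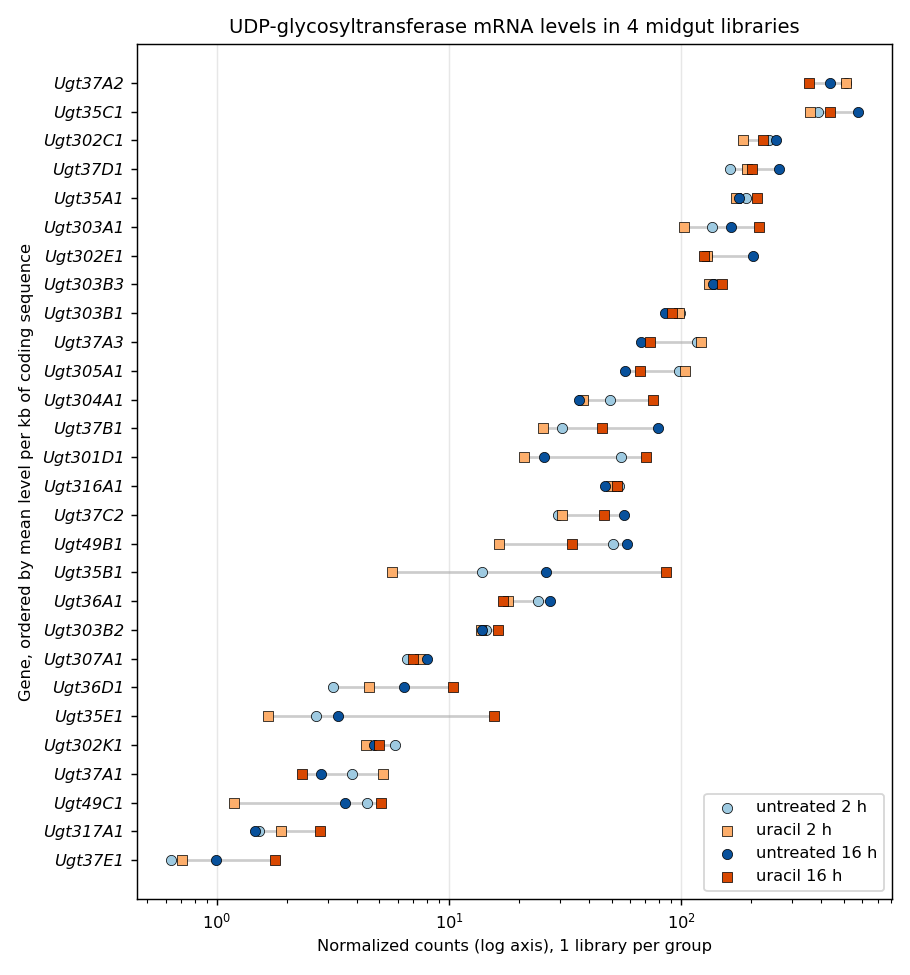
Normalized counts (log axis) of the 28 detected UGT genes in 4 libraries, ordered by mean level per kilobase; circles are untreated, squares uracil-treated, pale 2 h and dark 16 h, and grey lines join the lowest and highest library. Ugt303B3 stays between 132 and 150, while Ugt35B1 runs from 5.67 to 85.6 and Ugt35E1 from 1.65 to 15.5.

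Members differed widely in how far they varied. Of the 28, 19 were less than 2-fold apart in each of the 4 comparisons made between single libraries, against 7091 of 8568 genes (82.8%). Both counts are on the scale of log2(normalized count + 1). The steadiest was Ugt303B3, at 138, 132, 137 and 150 normalized counts, a highest value 1.14 times its lowest. Its neighbours of the same subfamily were steady too: Ugt303B1 stood at 98.7, 97.5, 84.5 and 90.6, and Ugt303B2 kept between 13.7 and 16.2. Ugt316A1 (46.8 to 53.9), Ugt307A1 (6.59 to 8.0), Ugt35A1 (171 to 212), Ugt302K1 (4.37 to 5.83) and Ugt302C1 (184 to 254) each spanned at most 1.38-fold. At the other end Ugt35B1 spanned 15.1-fold, Ugt35E1 9.39-fold and Ugt49C1 4.32-fold.

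The 7 members under a mean of 1 normalized count, given here as not detected, were Ugt35D1, Ugt35E2, Ugt36E1, Ugt36F1, Ugt37C1, Ugt49B2 and Ugt50B3. Just inside the limit was Ugt37E1, with a mean of 1.03, whose highest library was uracil 16 h at 1.77. Just outside were Ugt50B3 (mean 0.739) and Ugt35E2 (mean 0.725). Ugt36E1, known for its expression in olfactory neurons and a part in pheromone discrimination, was at 0.127 and 0.118 at 2 h and at 0.993 and 0.887 at 16 h, untreated first each time. Its exons share 48 bases with CG17597 on the opposite strand, which stood at 275 to 438 normalized counts. The library kit named in the labels does not mark strand, so reads in such an overlap cannot be told apart. Ugt35D1 and Ugt49B2 had 1 read each over all libraries.

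Positions come from Ensembl release 115 (assembly BDGP6.54), matched by gene ID, which need not be the build used for alignment. The 35 genes lay in 18 places on the chromosomes when members less than 30 kb apart were joined. The largest group held 10 members on chromosome 3R between 11126597 and 11177910, of which Ugt35E2 was not detected. Ugt303B3, Ugt303B1 and Ugt303B2 formed another group on 3R (23532945 to 23538908), Ugt37A2 and Ugt37A3 a pair (3R, 12739642 to 12743680), and Ugt37C2, Ugt37E1 and Ugt37D1 a group on 2L (16794211 to 16801584). Sequence similarity between members was not analysed here, so reads that could belong to more than 1 of them were not assessed.

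The early comparison asks how UGT mRNAs differed after 2 h of uracil. Of the 28 detected members 4 were at least 2-fold apart, against 3.05% of all genes in either direction. All 4 (14.3%) were at least 2-fold lower with uracil on the scale of log2(normalized count + 1), against 129 of 8568 genes (1.51%). None was at least 2-fold higher, against 132 genes (1.54%). The 4 were Ugt49B1, Ugt301D1, Ugt49C1 and Ugt35B1, of which Ugt49B1 and Ugt301D1 also passed 2-fold with a pseudocount of 5. The median log2 ratio of the detected members was -0.09, and that of all 8568 genes was 0.01.

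Ugt49B1 stood at 50.6 normalized counts in untreated 2 h and 16.3 in uracil 2 h. The ratio was 0.322 (0.264 to 0.392). On the scale of log2(normalized count + 1) the gene was at -1.58, the lowest of the family. Its neighbour Ugt49C1 on chromosome 2R was at 4.44 and 1.18, a ratio of 0.266 (0.118 to 0.549) that rests on 35 and 10 reads. At 16 h Ugt49C1 was at 3.56 without and 5.10 with uracil (1.43, 0.955 to 2.13). Both adjacent members of this subfamily were thus lower, and the third, Ugt49B2, was not detected. Exons of Ugt49B1 share 90 bases with CG44245 on the opposite strand, a gene not analysed here.

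Ugt301D1 was at 54.9 and 21.0 normalized counts, a ratio of 0.383 (0.320 to 0.457). Ugt35B1, first described from its expression in the antenna, was at 13.8 and 5.67, a ratio of 0.410 (0.286 to 0.581). Of the 10 photoreceptor and antennal markers, the odorant-binding protein genes Obp83a, Obp83b and lush were under 1 normalized count in all 4 libraries. The olfactory co-receptor gene Orco had 19 reads (1.11) in untreated 16 h and 0 or 1 elsewhere, and the photoreceptor genes ninaE (22.5) and Arr2 (13.0) were highest in that library too, where Ugt35B1 was at 26.1. Ugt35B1 itself was highest in uracil 16 h, at 85.6. The 10 markers summed to 8.76 in that library and to 58.6 in untreated 16 h. The part of head tissue in the UGT values was not tested.

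Counting intervals at 2 h lay wholly below 1 for 11 of 28 members, against 1343 of 8568 genes (15.7%), and wholly above 1 for 1, against 1421 genes (16.6%). The 1 above was Ugt37D1, at 161 and 191 (ratio 1.18, 1.10 to 1.28). Among the abundant members Ugt302C1 was at 238 and 184 (0.774, 0.723 to 0.828) and Ugt303A1 at 135 and 103 (0.763, 0.697 to 0.835). Ugt304A1 was at 49.1 and 37.7 (0.768, 0.660 to 0.893), and Ugt37B1 at 30.7 and 25.3 (0.824, 0.682 to 0.994). Ugt37A2 (0.998, 0.956 to 1.04) and Ugt302E1, at 129 in both libraries (ratio 1.0, 0.921 to 1.09) had ratios close to 1.

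The late comparison asks the same after 16 h. Here 4 of 28 members were at least 2-fold apart, against 8.72% of all genes in either direction. All 4 (14.3%) were higher with uracil, against 662 of 8568 genes (7.73%), and none was at least 2-fold lower, against 85 genes (0.992%). The 4 were Ugt35E1, Ugt35B1, Ugt301D1 and Ugt304A1. The member median was 0.13 on the log2 scale, and that of all genes was -0.02. A higher value may come from more cells of a type or from more RNA per cell, which cannot be told apart in bulk tissue.

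Ugt35B1 was at 26.1 normalized counts in untreated 16 h and 85.6 in uracil 16 h, 3.29-fold higher (2.92 to 3.70). Ugt35E1, which lies near it in the 10-gene group, was at 3.33 and 15.5, 4.66-fold higher (3.40 to 6.46), after 2.66 and 1.65 at 2 h. These are the 2 members with the largest log2 ratios of this comparison, 1.68 and 1.93. Ugt301D1 was at 25.6 and 70.2, 2.74-fold higher (2.43 to 3.11), and Ugt304A1 at 36.3 and 75.4, 2.08-fold higher (1.86 to 2.32). For Ugt301D1 and Ugt304A1 the untreated 16 h value was itself below the untreated 2 h value (54.9 and 49.1).

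Several abundant members stood on the other side at 16 h. Ugt302E1 was at 203 without and 126 with uracil (0.618, 0.578 to 0.662), Ugt35C1 at 577 and 438 (0.759, 0.732 to 0.788), and Ugt37D1 at 263 and 202 (0.766, 0.725 to 0.809). Ugt37A2 was at 434 and 354 (0.815, 0.781 to 0.849), and Ugt302C1 at 254 and 224 (0.879, 0.834 to 0.927). Ugt37B1 was at 79.2 and 45.7 (0.577, 0.515 to 0.645) and Ugt49B1 at 58.5 and 33.7 (0.576, 0.505 to 0.656), the lowest ratios at this time. Over the family, intervals lay above 1 for 11 of 28 members, against 2670 of 8568 genes (31.2%), and below 1 for 9, against 2940 genes (34.3%), shares near those of all genes. The 4 members with the highest level per kilobase were thus on the lower side, whereas Ugt35A1 (1.20, 1.13 to 1.27) and Ugt303A1 (163 and 215, 1.32, 1.24 to 1.40) were on the higher side.

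**Figure D2:**
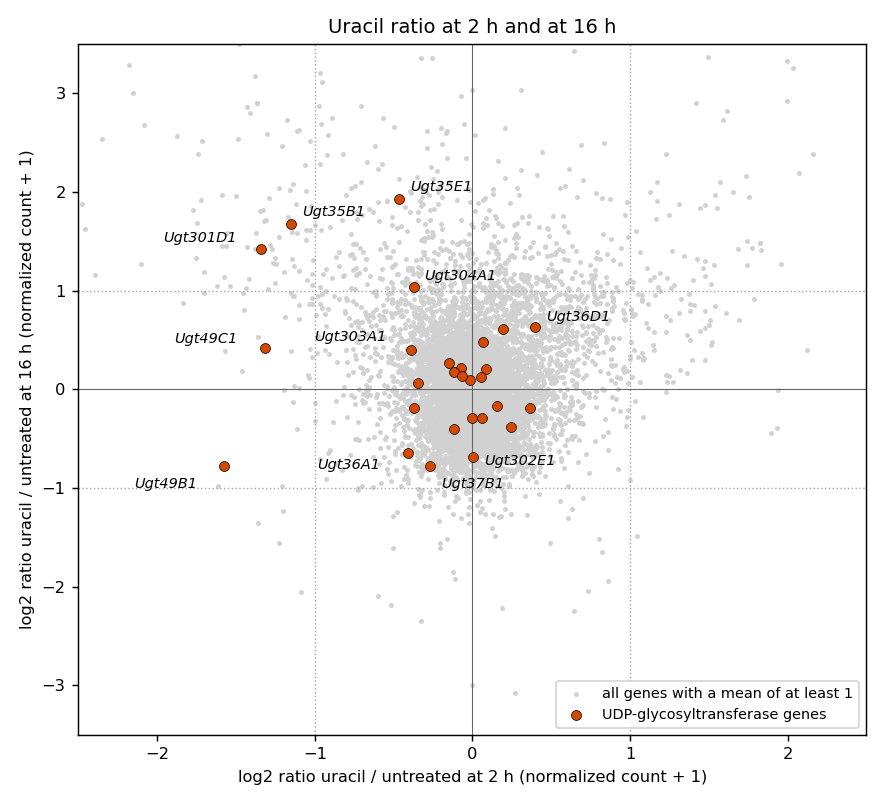
Log2 ratio of uracil to untreated at 2 h (horizontal) and at 16 h (vertical), both on log2(normalized count + 1), for the 28 detected UGT genes (orange) over all 8568 genes (grey, 36 outside the axes); dotted lines mark 2-fold. Ugt35B1 (-1.15, 1.68) and Ugt301D1 (-1.34, 1.42) pass 2-fold in opposite directions at the 2 times, and Ugt49B1 is below 0 at both.

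The sign of the uracil ratio differed between times for many members. A ratio below 1 at 2 h and above 1 at 16 h was found for 12 of 28 members, against 2086 of 8568 genes (24.3%). Of the rest, 6 were below 1 at both times, 5 above 1 at both, and 5 above 1 at 2 h and below 1 at 16 h. Of the members, Ugt35B1 and Ugt301D1 passed 2-fold at both times, in opposite directions, as did 97 of 8568 genes (1.13%). With a pseudocount of 5 the log2 ratio of Ugt35B1 at 2 h was -0.82, so that Ugt301D1 alone did. The pair at 2 h and the pair at 16 h share no library. With 1 library per group the difference between the times has no test.

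Time was compared within each treatment. In untreated guts 2 members were at least 2-fold apart on log2(normalized count + 1), against 5.63% of all genes in either direction. Of these 1 was at least 2-fold higher at 16 h than at 2 h and 1 lower, against 238 (2.78%) and 244 (2.85%) of 8568 genes. Ugt37B1 was the higher one, at 30.7 normalized counts at 2 h and 79.2 at 16 h, 2.58-fold (2.25 to 2.97). Ugt301D1 was the lower one, at 54.9 and 25.6, a ratio of 0.466 (0.407 to 0.533). Scaled to the column totals instead of the authors' factors, 3 members were at least 2-fold higher and none lower. Among only those genes that were at least 2-fold apart, the share that was higher moved from 49.4% to 67.1%.

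In uracil-treated guts 7 members were at least 2-fold apart, against 12.3% of all genes in either direction. With a pseudocount of 5, or among the 20 members with a mean of at least 10, there were 4. All 7 were higher at 16 h than at 2 h, against 800 of 8568 genes (9.34%), and none at least 2-fold lower, against 252 (2.94%). Ugt35B1 was at 5.67 normalized counts at 2 h and 85.6 at 16 h, 15.1-fold higher (11.3 to 20.7). Ugt35E1 was at 1.65 and 15.5, 9.39-fold higher (5.41 to 17.6, from 14 and 140 reads), and Ugt49C1 at 1.18 and 5.10, 4.32-fold higher (2.15 to 9.60). Ugt301D1 was 3.34-fold higher (2.82 to 3.96). The other 3 lay close to the limit: Ugt36D1 (4.49 and 10.4, 2.32-fold, 1.58 to 3.48), Ugt303A1 (103 and 215, 2.09-fold, 1.93 to 2.27) and Ugt49B1 (16.3 and 33.7, 2.07-fold, 1.69 to 2.55). Ugt36D1 was also higher at 16 h in untreated guts, at 6.37 against 3.17 (plain ratio 2.01, 1.29 to 3.24). This comparison shares the uracil libraries with those above, so that it is not a separate finding for the same members.

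Ugt37A3 and Ugt305A1 were lower at 16 h in both treatments. Ugt37A3 was at 117 and 67.0 normalized counts in untreated and at 122 and 73.0 in uracil-treated guts, ratios of 0.574 (0.526 to 0.626) and 0.600 (0.543 to 0.663). Ugt305A1 was at 97.5 and 57.4, and at 104 and 66.3. In both genes the 2 libraries of 2 h stood above the 2 of 16 h without overlap. Ugt37A2, the neighbour of Ugt37A3, was lower as well, by less, with ratios of 0.850 (0.818 to 0.884) and 0.694 (0.663 to 0.727). Ugt37C2 (29.4 and 30.7 at 2 h, 56.8 and 46.5 at 16 h) and Ugt37B1 stood higher at 16 h in both treatments.

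The 10 genes of the group on chromosome 3R did not share 1 profile. Moving along the chromosome, Ugt35C1, Ugt302E1 and Ugt302C1 were abundant and highest in untreated 16 h, with Ugt302K1 between them at 4.37 to 5.83. Then came Ugt35E1, Ugt35E2 and Ugt35B1, all highest in uracil 16 h and lowest in uracil 2 h, where Ugt35E2 had 0 reads, which allows up to 0.354 normalized counts. Ugt35E2, not detected, had 5, 0, 16 and 12 reads. Counting intervals of the uracil ratio included 1 for Ugt35E2 at 16 h (1.42, 0.615 to 3.21) and for Ugt35E1 at 2 h (0.621, 0.292 to 1.28). Next to Ugt35B1, Ugt35A1 was at 190, 171, 177 and 212 normalized counts, a span of 1.24-fold beside the 15.1-fold of its neighbour. Ugt304A1 and Ugt303A1, at the end of the group, were both highest in uracil 16 h, at 75.4 and 215. The group as a whole summed to 1152, 994, 1445 and 1397 normalized counts. Ugt35C1 held the largest part of the sum in every library, at 31.3% to 39.9%.

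**Figure D3:**
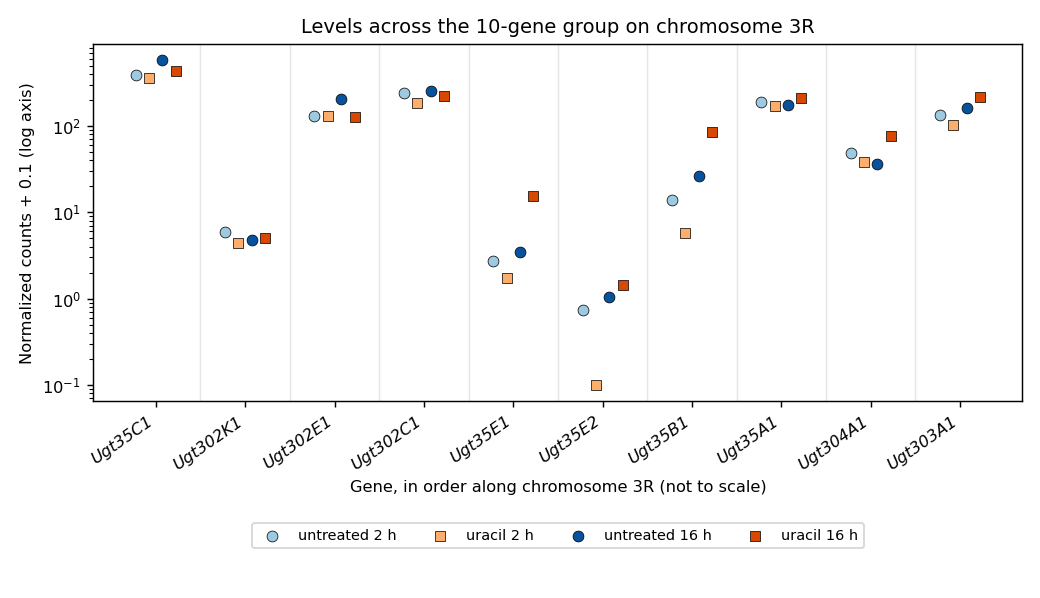
Normalized counts plus 0.1 (log axis) of the 10 UGT genes of the chromosome 3R group, in gene order and not to scale, with 1 point per library; circles are untreated and squares uracil-treated. Ugt35E1, Ugt35E2 and Ugt35B1 spread widely between libraries, while Ugt35A1 stays between 171 and 212. Ugt35E2 is under the limit for detection and has 0 to 16 reads per library.

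A uracil effect common to both times was tested for each gene with limma, in an additive model of treatment and time over all 8568 genes. No UGT gene passed an FDR of 0.05 after Benjamini-Hochberg adjustment, against 3 of all genes (0.0350%). At an unadjusted p under 0.05 there was 1 member with limma and 1 with edgeR, of 389 (4.54%) and 426 (4.97%) genes, and edgeR called no member at an FDR of 0.05 against 5 genes (0.0584%). That member was Ugt49B1, lower in both uracil libraries by a fitted log2 difference of -1.18 (SE 0.267, limma adjusted p = 0.491, 0.149 to 0.618 over the settings tried). Its values were 50.6 and 58.5 normalized counts without uracil and 16.3 and 33.7 with uracil, without overlap. For Ugt35B1 and Ugt301D1, whose ratios had opposite signs, the fitted differences were 0.26 (SE 0.608) and 0.04 (SE 0.591).

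A time effect common to both treatments was tested in the same fit. No member passed an FDR of 0.05 with limma or edgeR, against 36 (0.420%) and 25 (0.292%) of all genes. At an unadjusted p under 0.05 there were 8 members with limma and 7 with edgeR, where all genes had 1371 (16.0%) and 1341 (15.7%). Higher at 16 h among the 8 were Ugt37B1, with a fitted log2 difference of 1.08 (SE 0.235, limma adjusted p = 0.114, 0.0339 to 0.177 over settings), and Ugt35B1, with 2.28 (SE 0.608, limma adjusted p = 0.158, 0.0367 to 0.246). Both passed the FDR with no filter on low values, where 342 of 11850 genes (2.89%) did, and with scaling to column totals, where 308 of 8568 (3.59%) did. Ugt35E1, Ugt36D1, Ugt37C2 and Ugt303A1 were higher at 16 h too, and Ugt37A3 and Ugt305A1 lower (fitted log2 differences of -0.76 and -0.70). For Ugt35B1 the fitted value averages unlike log2 ratios, 0.87 in untreated and 3.70 in uracil-treated guts. The same holds for Ugt35E1, at 0.24 and 2.64. The model leaves 1 degree of freedom per gene, the interaction of treatment and time, and limma adds 5.29 prior degrees of freedom drawn from all genes.

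Malpighian tubule markers moved in the same directions as some of the members with a wide spread. At 2 h, 6 of 13 markers were at least 2-fold lower with uracil and 0 higher, and at 16 h 8 of 13 were at least 2-fold higher and 0 lower, with median log2 ratios of -0.79 and 1.23. Uro, the urate oxidase gene, stood at 82.6, 14.2, 67.2 and 210 normalized counts, and Smvt, a vitamin transporter gene, at 85.1, 19.0, 138 and 334. The sum of the list was 4.71-fold higher in uracil 16 h than in uracil 2 h, beside 15.1-fold for Ugt35B1, 9.39-fold for Ugt35E1 and 3.34-fold for Ugt301D1. Single markers varied widely around that sum: their median log2 ratio was 2.12, and 9 of 13 were at least 2-fold higher. Uro was at 3.80, Smvt at 4.06 and Irk2 at 0.21, beside 3.70 for Ugt35B1 and 2.64 for Ugt35E1. A lowest value in uracil 2 h and a highest in uracil 16 h was found for 9 of 13 tubule markers (69.2%), 8 of 28 UGT genes (28.6%), 0 of 11 enterocyte markers and 953 of 8568 genes (11.1%). The 8 were Ugt301D1, Ugt49C1, Ugt35E1, Ugt35B1, Ugt35A1, Ugt303A1, Ugt303B3 and Ugt303B2. The pattern was counted at any size, and Ugt35A1, Ugt303B3 and Ugt303B2 spanned only 1.24-fold, 1.14-fold and 1.18-fold. The part of tubule tissue in the UGT values was not tested. Ugt49B1 did not follow the markers at 16 h, at 33.7 with and 58.5 without uracil. Ugt36D1 and Ugt37B1, which spanned 3.29-fold and 3.13-fold, were not among the 8 either.

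Of the families that act beside the UGTs in detoxification, cytochrome P450 genes had 6 of 65 detected members at least 2-fold lower and 2 higher with uracil at 2 h, and 13 higher and 1 lower at 16 h. Their median log2 ratios were -0.16 and 0.38, and 20 of 65 (30.8%) were lowest in uracil 2 h and highest in uracil 16 h. Glutathione S-transferase genes had 1 of 30 lower and 0 higher at 2 h, and 3 higher and 0 lower at 16 h, with medians of -0.02 and 0.19, and 2 of 30 (6.67%) followed that pattern. Between times in untreated guts the transferases had a median of -0.62, and the UGT genes 0.04. Differences between the families were not tested.

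**Figure D4:**
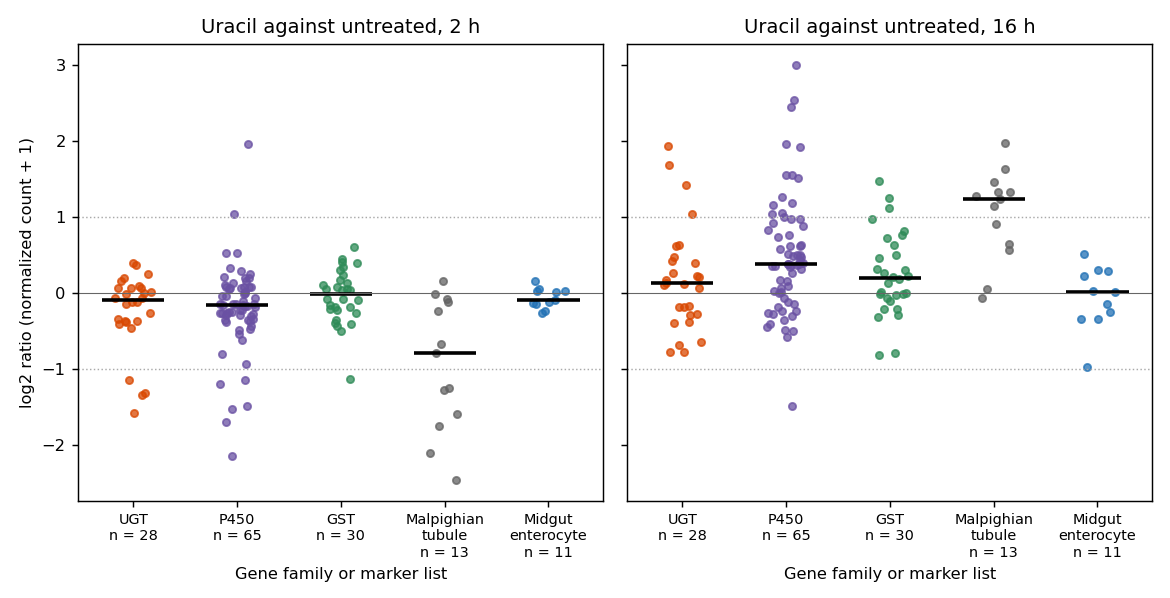
Log2 ratio of uracil to untreated, on log2(normalized count + 1), at 2 h (left) and 16 h (right) for detected UGT, P450 and glutathione S-transferase (GST) genes and for markers of Malpighian tubule and midgut enterocytes; each point is a gene, thick bars are medians and dotted lines mark 2-fold. The UGT medians are -0.09 and 0.13, the tubule medians -0.79 and 1.23.

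Of 9 genes for the supply and transport of UDP-sugars, 0 were at least 2-fold apart with uracil at either time. UGP, which encodes the enzyme that makes UDP-glucose, came nearest at 16 h, with 87.5 normalized counts without and 147 with uracil, after 71.3 and 47.9 at 2 h. It was also the 1 gene of the list at least 2-fold higher at 16 h than at 2 h in uracil-treated guts. Of 9 regulators of the response to foreign compounds, 8 were detected and 0 were 2-fold apart in any of the 4 comparisons. The stress regulator gene cnc stood at 625, 581, 602 and 641 normalized counts, and Hr96, a nuclear receptor gene of xenobiotic response, at 130, 177, 121 and 97.0. Of 5 ABC efflux transporter genes 1 was 2-fold apart with uracil at each time: Mdr65, at 1.27, 0.118, 5.49 and 12.5 normalized counts, the first from 10 reads and the second from 1. Of 3 sulfotransferase genes only St1 was detected, at 0.709 to 1.99.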

How the data were processed

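The authors deposited 1 table of normalized counts, a signal for every gene in each library. Per the submitters' processing notes, cutadapt 1.0, TopHat2 2.0.5, Bowtie, HTSeq and edgeR were used; their settings and roles, the genome build, the annotation and the use of strand are not given there. All values were whole multiples of 1 step per library (100.0% within 0.01 reads), which gave back reads per gene. Of 13646 lines, 118 shared 57 IDs and were summed; 12888 of 13585 IDs had a symbol. Genes with a mean of at least 1 normalized count (8568) were compared as log2(normalized count + 1), with limma 3.58.1 (trend) for effects shared by both times or treatments. Ratios have exact Clopper-Pearson 95% intervals from reads (scipy 1.17.1), and a count of 0 is given the limit of 3 reads. Intervals cover counting error only. Alternatives were other pseudocounts, filters and scalings (column totals, DESeq2 1.42.0 median of ratios), limma without trend and edgeR 4.0.16. The tests were also run on simulated data. Those had less spread between libraries than these data and no interaction of treatment and time. They therefore do not show how the tests perform here.

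Members and lists were chosen with earlier results of these data known. Values are given in full for the 10 members with the highest level per kilobase, for those at least 2-fold apart in a comparison with at least 10 reads in the higher library, and for those past the limma threshold, 18 in all; other members are given as ranges or examples. The fixed lists for fat body, hemocyte and hindgut were also computed. A list of 2 deconjugating enzymes was set as well, but neither was matched to a gene by symbol. Detected fat body markers (6 of 11) had median log2 ratios of -0.31 at 2 h and -0.40 at 16 h with uracil, hemocyte markers (5 of 7) -0.60 and -1.24 (their sum at 16 h was 1.32-fold higher, opposite in sign to the median), and visceral muscle markers (8) 0.77 and 1.03. Neither hindgut marker was detected, and the 2 deconjugating enzymes are not analysed here.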

Additional observations from a re-analysis of the deposited data

Results flagged for a closer look

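For 6 members the uracil ratio lay on opposite sides of 1 at 2 h and at 16 h, with both 95% counting intervals off 1, against 1180 of 8568 genes (13.8%). The difference between the times was not tested, since each time has 1 library per treatment. Given as the log2 ratio at 16 h minus that at 2 h, it was 2.83 for Ugt35B1, 2.76 for Ugt301D1, 1.41 for Ugt304A1, 0.78 for Ugt303A1 and 0.41 for Ugt35A1, all lower with uracil at 2 h and higher at 16 h. For Ugt37D1 it was -0.62, with the opposite order. Of the 6, Ugt35B1 and Ugt301D1 passed 2-fold at both times with the pseudocount of 1. For the 13 tubule markers the same difference ran from 0.01 to 4.09 with a median of 1.70, and 4 of them lay above Ugt35B1.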

How the results depend on the processing

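With a pseudocount of 5, members at least 2-fold apart numbered 2 in place of 4 at 2 h (2 lower), 1 in place of 2 between times in untreated guts (0 lower), and 4 in place of 7 between times in uracil-treated guts (4 higher); with 0.5, 1 member was 2-fold lower in the last comparison in place of 0. A filter at a mean of 10 left 20 members and 4 apart, all higher, in that comparison. Scaling to column totals moved the median of all genes by 0.14 between times in untreated guts and by 0.11 in uracil-treated guts. The member medians became 0.1964 and 0.4002, which is 0.02 and 0.30 above that of all genes, beside 0.01 and 0.30 with the authors' scaling, and 3 members were 2-fold higher and 0 lower in untreated guts. For the shared time effect, limma called 3 members with no filter (Ugt35B1, Ugt37B1 and Ugt36E1) and 2 with column totals (Ugt35B1 and Ugt37B1), in place of 0, where all genes had 342 of 11850 and 308 of 8568 in place of 36; for the shared uracil effect it was 0 in all settings. No called direction was reversed, and counts for uracil at 16 h stayed within 1.5 times of the main value. Over all genes a pseudocount of 5 gave 40 higher and 54 lower at 2 h, 377 and 50 at 16 h, 84 and 135 between times in untreated and 491 and 158 in uracil-treated guts, and a mean of at least 10 gave 41 and 92, 357 and 58, 137 and 158, and 426 and 168; the main counts are in the text. Column totals gave 377 and 185 between times in untreated guts. No paired analysis was possible because each group has 1 library and the labels give no replicate numbers. Depth limits members under a few normalized counts, such as Ugt49C1 at 10 reads.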
